A study of Rattus norvegicus with 12 samples.

Results

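The genes described here encode the machinery of synaptic vesicle release, the set of proteins that loads, docks, fuses and retrieves the vesicles of nerve terminals. The 39 genes were chosen by symbol, from what their proteins do, out of 37209 gene symbols in a table of read counts from rat brain. They are 6 SNARE proteins and SNARE disassembly factors, 7 calcium sensors, 3 complexins, 3 Rab3 GTPases, 6 vesicle membrane proteins, 3 synapsins, 7 active zone and priming proteins, 3 endocytosis proteins and the axonal anchor Snph. All 39 were in the table and 37 passed the filter on low counts. The other 2, Syp and Syn1, were listed at 0 in all 12 libraries.

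The rats were of the Sprague Dawley strain, aged 21 days after birth, and their brain RNA was sequenced in 4 groups of 3 libraries. MCAO rats had an occlusion of the middle cerebral artery, which supplies much of the cerebral hemisphere, and their reference is the sham group coded LN. Pontine infarction rats had a stroke of the pons, a part of the brainstem, and their reference is the sham group coded PN. The strokes were matched to the shams by the first letter of the library codes, and 1 MCAO column carries a number that is in no sample title and is called the unnumbered MCAO library. The labels speak of 3 rats for each stroke and do not say whether a library is 1 animal, which part of the brain was taken or how long after the stroke. The p-values therefore measure the spread between these libraries, which may be technical.

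In a nerve terminal, vesicles are held in a reserve pool by synapsins, brought to the membrane by Rab3 GTPases and docked at the active zone, a scaffold built from RIM, Munc13, Bassoon, Piccolo and ELKS proteins. The SNARE proteins syntaxin, SNAP-25 and synaptobrevin then pull vesicle and plasma membrane together, complexins hold and promote that complex, and synaptotagmins start fusion when calcium enters. Afterwards NSF and its SNAP adaptors take the SNAREs apart, and dynamin, amphiphysin and synaptojanin recover the membrane. Many of these proteins come from families of paralogs that different neurons use in different proportions. Synaptotagmin 1 and synaptobrevin 2 are the main forms of forebrain neurons, whereas synaptotagmin 2 and synaptobrevin 1 are prominent in the brainstem and spinal cord.

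Because these paralogs divided the libraries by code letter, windows at the annotated gene starts of 2 such pairs are shown. The synaptobrevins Vamp1 and Vamp2 come before the synaptotagmins Syt1 and Syt2. Each window runs from 250 bases before to 50 bases after the gene's start, 5′ to 3′ on the gene's strand, as given by RefSeq on the GRCr8 build. Capitals mark the cAMP response element TGACGTCA and the GC box GGGCGG, searched on both strands, so that a GC box on the other strand reads CCGCCC.
Vamp1, chr4:159698644-159698943, plus strand: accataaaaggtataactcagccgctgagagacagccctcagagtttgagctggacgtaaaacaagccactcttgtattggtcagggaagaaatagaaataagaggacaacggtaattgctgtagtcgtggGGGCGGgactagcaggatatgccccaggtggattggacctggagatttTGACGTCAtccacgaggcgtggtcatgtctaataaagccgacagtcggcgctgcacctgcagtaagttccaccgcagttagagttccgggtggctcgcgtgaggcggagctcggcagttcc
Vamp2, chr10:54292539-54292838, plus strand: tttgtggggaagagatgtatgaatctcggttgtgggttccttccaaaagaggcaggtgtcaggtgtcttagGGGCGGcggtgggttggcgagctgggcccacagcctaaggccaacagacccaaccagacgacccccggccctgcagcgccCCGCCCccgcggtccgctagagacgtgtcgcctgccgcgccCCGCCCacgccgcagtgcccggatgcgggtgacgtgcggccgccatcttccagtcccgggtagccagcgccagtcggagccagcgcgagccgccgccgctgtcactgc
Syt1, chr7:46244164-46244463, minus strand: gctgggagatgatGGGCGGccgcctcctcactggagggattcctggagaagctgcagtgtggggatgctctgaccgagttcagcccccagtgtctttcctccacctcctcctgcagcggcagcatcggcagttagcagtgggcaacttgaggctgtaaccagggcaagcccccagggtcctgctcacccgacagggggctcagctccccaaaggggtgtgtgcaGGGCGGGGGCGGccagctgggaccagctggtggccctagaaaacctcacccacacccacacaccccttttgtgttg
Syt2, chr13:48736872-48737171, plus strand: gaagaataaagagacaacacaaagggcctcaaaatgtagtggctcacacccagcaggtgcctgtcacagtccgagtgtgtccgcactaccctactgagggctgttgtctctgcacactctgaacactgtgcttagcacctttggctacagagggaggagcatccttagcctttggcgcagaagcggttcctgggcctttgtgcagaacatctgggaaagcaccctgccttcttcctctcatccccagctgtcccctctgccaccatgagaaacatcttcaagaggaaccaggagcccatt

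Vamp1 had the cAMP response element, which began 71 bases before the start, and 1 GC box. Vamp2 had 3 GC boxes, Syt1 had 3, and Syt2 had neither motif in this window. In the Syt2 window an ATG followed by an open reading frame comes shortly after the annotated start. Whether this window is the promoter used in brain was not tested, so its lack of motifs carries no contrast with Syt1. Promoters were found for 29 of the 39 genes. Of these, 20 (69.0%) held a GC box, against 33.1% of 33469 rat promoters of the same length. The cAMP response element was in 2 (Vamp1 and Syn1, 6.9%), against 1.83% of all promoters, and the TATA box TATAAA was in 0, against 14.2%. The median GC content was 64.3% for the 29 and 51.7% for all promoters. These matches describe the letters of the windows.

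Libraries held 19805815 to 40400676 counts, and the 39 genes took 0.844% to 1.77% of them. Correlations of log2 values between libraries of the same group were 0.932 to 0.986. All 15 neuron markers outside the synapse, such as Rbfox3, Map2 and Tubb3, were above 0 in every library. The summed level of 11 telencephalon markers, Emx1 and Tbr1 among them, was 1810 to 2150 CPM (a gene's counts relative to its library's total, scaled by the trimmed mean of M-values, TMM) in MCAO, 2260 to 4010 in sham LN, 92.5 to 129 in pontine infarction and 126 to 141 in sham PN. The summed level of the hindbrain Hox genes was 0 to 0.289, 0 to 0.079, 2.51 to 16 and 23.7 to 39.6 CPM in the same 4 groups. Much of the telencephalon sum came from 1 gene, Ppp1r1b, with 1287 to 1467 CPM in MCAO and 1345 to 2869 CPM in sham LN. In these 2 groups Emx1 had 15.1 to 39.4 and 21.2 to 33.1 CPM, and Tbr1 16.4 to 78.4 and 42.9 to 95.0 CPM. MCAO replicate 1 stood apart with 1120 CPM of choroid plexus markers, of which Ttr gave 1019 CPM, against 6.66 and 11.4 CPM in the other MCAO libraries and 4.04 to 5.69 CPM in sham LN. Pontine infarction replicate 3 stood apart with 932 CPM of cerebellum markers, against 88.5 and 151 CPM in the other pontine infarction libraries and 171 to 206 CPM in sham PN.

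Syp and Syn1 encode synaptophysin and synapsin 1, which are among the most abundant vesicle proteins of the brain. Both lie on the X chromosome. Of 606 X-linked protein-coding names matched through RefSeq (GRCr8), 591 (97.5%) were at 0 in all 12 libraries. On the 20 autosomes the share was between 1.82% and 13%. The zeros of Syp and Syn1 are therefore given as listed, with no fold change and no test.

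The sham groups differed in the make-up of the release machinery. With edgeR's quasi-likelihood test and Benjamini-Hochberg adjustment over 17008 genes, 14 of the 37 genes were higher in sham LN than in sham PN, 5 were lower and 18 did not pass. Among all tested genes 21.3% passed, 10% higher and 11.3% lower. The 3 libraries of each group did not overlap for 24 of the 37 genes, with sham LN above sham PN for 18 and below it for 6, while 21.7% of all genes lay above and 29.2% below. The median log2 difference was 0.36 over the 37 genes and -0.11 over all tested genes. The 15 other neuron markers had a median of -0.38, with 12 of 15 below 0, 2 called higher and 4 lower. All 8 tested oligodendrocyte markers were lower in sham LN, with a median of -1.18 and a summed level of 15100 to 21500 CPM in sham LN and 41700 to 52300 CPM in sham PN. The part of these lists in the release genes' differences was not tested. The labels give no region, so a difference of region, of cell make-up and of RNA per cell between the shams cannot be told apart.

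**Figure D1:**
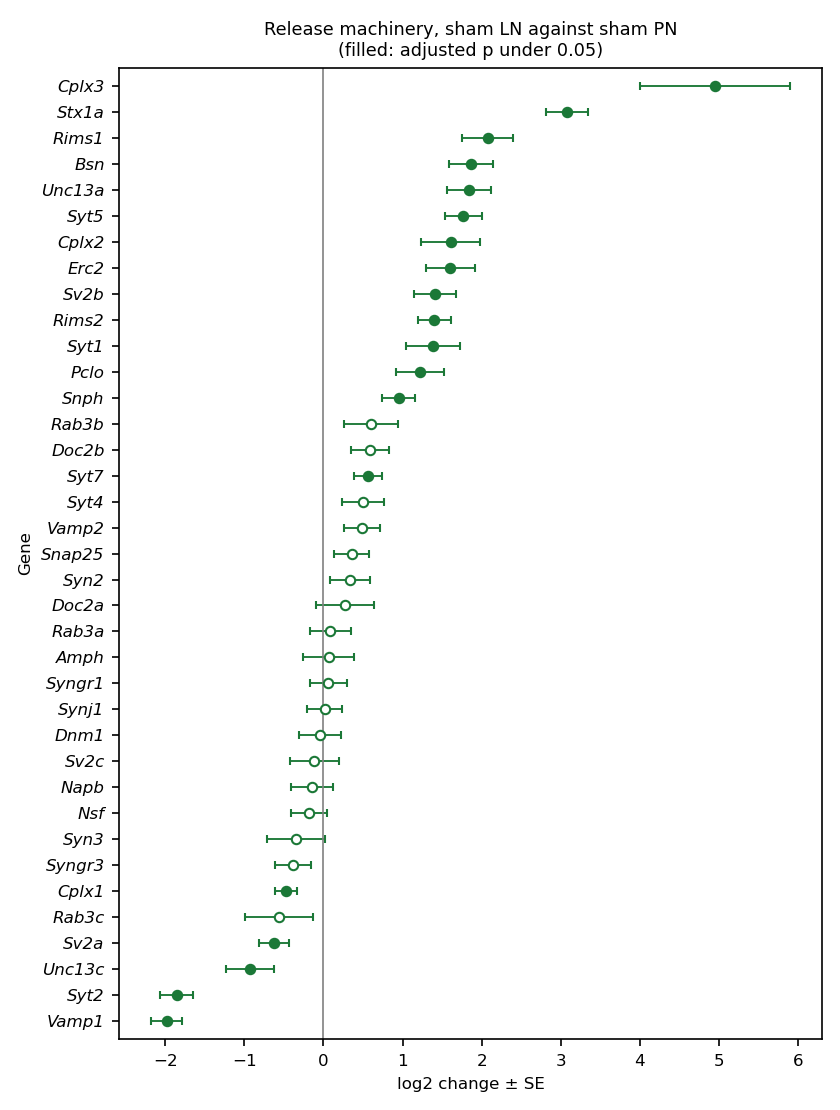
The plot gives the log2 difference of sham LN over sham PN for each of the 37 tested genes, with its standard error, filled where the adjusted p was under 0.05. Cplx3 and Stx1a are at the top, with 4.95 and 3.08, and Syt2 and Vamp1 at the bottom, with -1.86 and -1.98.

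Among the SNARE genes, Stx1a and Vamp1 differed between the shams and the rest did not pass. Stx1a, the syntaxin of the plasma membrane, had 285, 415 and 269 CPM in sham LN, against 34.9, 37.3 and 42.3 CPM in sham PN, a log2 difference of 3.08 ± 0.27 (SE, edgeR adjusted p = 2.62e-05). Every sham LN library was far above every sham PN library. Vamp1, synaptobrevin 1 of the vesicle membrane, had 386, 339 and 252 CPM in sham LN, against 1314, 1221 and 1326 CPM in sham PN, which gave -1.98 ± 0.20 (edgeR adjusted p = 4.99e-05). Its paralog Vamp2 had 1031, 1169 and 1005 CPM in sham LN, against 727, 759 and 805 CPM in sham PN. These groups did not overlap, but the log2 difference of 0.48 ± 0.23 had an edgeR adjusted p of 0.157. Snap25, the third partner of the complex, had 1293, 1547 and 1291 CPM in sham LN, against 1181, 1139 and 904 CPM in sham PN (log2 difference 0.36 ± 0.22, edgeR adjusted p = 0.291). The disassembly genes Nsf and Napb had log2 differences of -0.19 and -0.14.

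The calcium sensors were 3 higher, 1 lower and 3 without a call. Syt1, the sensor of fast synchronous release, had 1029, 1609.6 and 1234 CPM in sham LN, against 459, 571 and 453 CPM in sham PN (log2 difference 1.38 ± 0.35, edgeR adjusted p = 0.0142). Syt2, a faster sensor of the same class, ran the other way, with 106, 76.2 and 57.0 CPM in sham LN against 266, 295 and 305 CPM in sham PN (-1.86 ± 0.21, edgeR adjusted p = 0.000114). Neither gene had a library of one group within the range of the other. Syt5, a vesicle synaptotagmin, had 175, 205 and 187 CPM in sham LN, against 54.1, 57.2 and 55.0 CPM in sham PN (1.77 ± 0.23, edgeR adjusted p = 0.00034). Syt7, a high-affinity sensor of asynchronous release, had 399.8, 512 and 414 CPM in sham LN, against 277, 297 and 323 CPM in sham PN (0.56 ± 0.18, edgeR adjusted p = 0.0416). The Syt1 call was lost without sham LN replicate 2, sham PN replicate 1 or sham PN replicate 3, and the Syt7 call without any 1 of the 6 libraries, with adjusted p from 0.0617 to 0.159. Syt4, Doc2a and Doc2b had log2 differences of 0.50, 0.28 and 0.59.

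Complexins 2 and 3 were higher in sham LN and complexin 1 was lower. Cplx2 had 2617, 2859 and 2358 CPM in sham LN, against 692, 924 and 950.5 CPM in sham PN (log2 difference 1.61 ± 0.37, edgeR adjusted p = 0.0094). Cplx3, known from retinal ribbon synapses, was rare in both but had 21.4, 39.8 and 19.6 CPM in sham LN, against 1.07, 0.529 and 1.01 CPM in sham PN (4.95 ± 0.95, edgeR adjusted p = 0.00336). Cplx1 had 813, 769.8 and 708 CPM in sham LN, against 945, 1014 and 1227 CPM in sham PN (-0.48 ± 0.14, edgeR adjusted p = 0.031). The groups of all 3 complexins were apart, with the narrowest gap for Cplx1. The Cplx1 call was lost with DESeq2 size factors (adjusted p = 0.0527) and without 5 of the 6 libraries, the exception being sham PN replicate 1.

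The active zone and priming genes were the role with the most calls, 6 higher and 1 lower of 7. Rims1 and Rims2 encode RIM proteins that tether calcium channels and vesicles at the release site. Rims1 had 331, 521 and 349.7 CPM in sham LN, against 87.3, 106 and 92.2 CPM in sham PN (log2 difference 2.07 ± 0.32, edgeR adjusted p = 0.000871). Rims2 had 68.9, 72.2 and 69.5 CPM in sham LN, against 22.9, 31.5 and 25.3 CPM in sham PN (1.40 ± 0.21, edgeR adjusted p = 0.000797). The large scaffold genes Bsn and Pclo, for Bassoon and Piccolo, also had no shared range. Bsn had 869, 1319 and 808 CPM in sham LN, against 213, 297 and 313 CPM in sham PN (1.86 ± 0.27, edgeR adjusted p = 0.000688). Pclo had 195, 329.9 and 204 CPM in sham LN, against 91.8, 113 and 108 CPM in sham PN (1.22 ± 0.30, edgeR adjusted p = 0.0136), a call lost without sham LN replicate 2 or sham PN replicate 1. Erc2, which encodes an ELKS scaffold protein, had 40.02, 53.8 and 51.0 CPM in sham LN, against 15.05, 18.7 and 13.9 CPM in sham PN (1.60 ± 0.31, edgeR adjusted p = 0.00365).

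The priming factors of the Munc13 family split. Unc13a, for Munc13-1, had 276, 382 and 274 CPM in sham LN, against 74.2, 86.5 and 99.5 CPM in sham PN (log2 difference 1.84 ± 0.28, edgeR adjusted p = 0.000773). Unc13c, for Munc13-3, which is known from the cerebellum, had 29.0, 23.5 and 36.9 CPM in sham LN, against 53.4, 64.7 and 52.6 CPM in sham PN (-0.93 ± 0.30, edgeR adjusted p = 0.0487). The Unc13c call was lost without each of the 6 libraries in turn and with DESeq2 size factors (adjusted p = 0.0571). The summed level of 10 cerebellum markers was 143 to 181 CPM in sham LN and 171 to 206 CPM in sham PN, but the sum hides differences between genes. Of the 9 tested, 7 had a log2 difference below 0, with a median of -3.29, 3 called lower and 1 higher in sham LN. Calb1 alone gave 125, 91.9 and 136 CPM of the sum in sham LN, against 54.3, 31.2 and 24.8 CPM in sham PN. The part of cerebellar tissue in the Unc13c difference was not tested.

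Of the vesicle membrane genes, Sv2b was higher and Sv2a lower in sham LN. SV2 proteins are glycoproteins of the vesicle membrane, and SV2A is the binding site of the drug levetiracetam. Sv2b had 332, 596 and 421 CPM in sham LN, against 156, 175 and 177 CPM in sham PN (log2 difference 1.41 ± 0.26, edgeR adjusted p = 0.00267). Sv2a had 549, 681 and 504 CPM in sham LN, against 777, 908 and 983 CPM in sham PN (-0.62 ± 0.19, edgeR adjusted p = 0.0373). Both pairs of groups were apart, but the Sv2a call was lost with DESeq2 size factors (adjusted p = 0.0559) and without 4 of the 6 libraries. Sv2c had 51.1, 28.5 and 52.7 CPM in sham LN, against 39.6, 60.2 and 43.6 CPM in sham PN, and these groups overlapped.

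Snph, which encodes syntaphilin, the anchor of mitochondria in axons, had 535, 549.7 and 476 CPM in sham LN, against 237, 246 and 324 CPM in sham PN (log2 difference 0.95 ± 0.21, edgeR adjusted p = 0.00691). Rab3 GTPases, synapsins and endocytosis genes had 0 of 3, 0 of 2 and 0 of 3 calls. Rab3a, the main Rab3 form of brain vesicles, had 677, 747 and 611 CPM in sham LN, against 588, 624 and 707 CPM in sham PN, which overlapped. Dnm1, Amph and Synj1, for dynamin 1, amphiphysin and synaptojanin 1, had log2 differences of -0.04, 0.07 and 0.02. Syn2 and Syn3 had 0.34 and -0.34. Syngr1 and Syngr3, for synaptogyrins, had 0.06 and -0.38.

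Ratios of paralogs within a library do not depend on library scaling. They are ratios of counts and not of counts per length, so their level carries no statement on which form is more abundant, and with 3 libraries a group they are given without a test. The Syt2 to Syt1 ratio was 0.101, 0.0518 and 0.086 in MCAO and 0.103, 0.0473 and 0.0462 in sham LN. It was 0.461, 0.413 and 1.11 in pontine infarction and 0.579, 0.516 and 0.674 in sham PN. Each of the 6 libraries coded P was thus above each of the 6 coded L. The Vamp1 to Vamp2 ratio was 0.535, 0.258 and 0.530 in MCAO and 0.374, 0.290 and 0.251 in sham LN. It was 1.996, 1.53 and 1.68 in pontine infarction and 1.81, 1.61 and 1.65 in sham PN. The same separation of the 12 libraries was seen as for the synaptotagmins, and the windows printed above are those of these 4 genes.

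**Figure D2:**
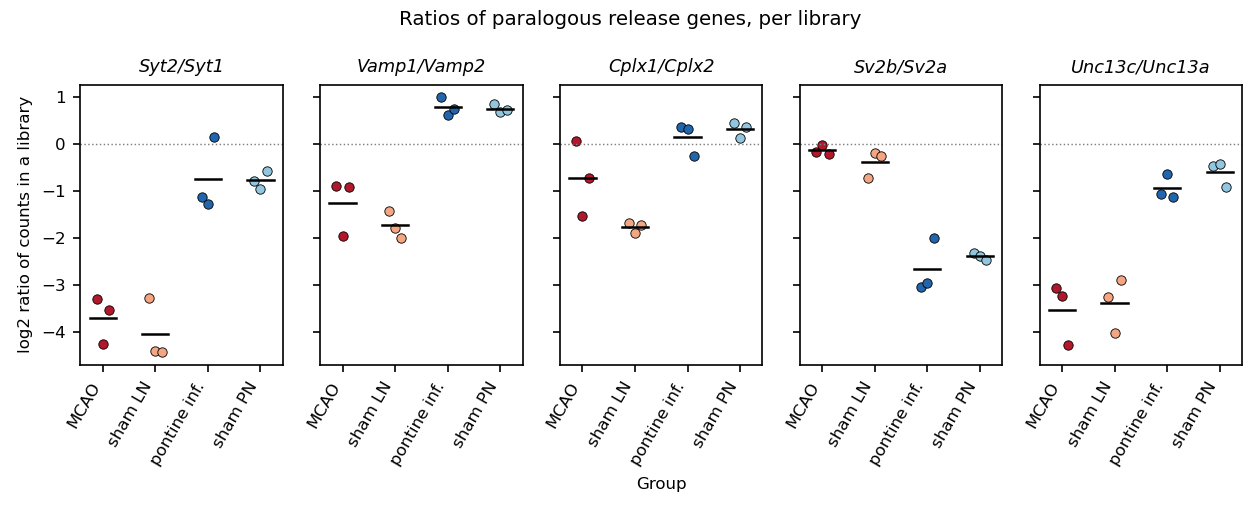
Each panel gives the log2 ratio of counts of 2 paralogs in each of the 12 libraries, by group, with bars at the group means. The Syt2/Syt1, Vamp1/Vamp2, Sv2b/Sv2a and Unc13c/Unc13a ratios separate the L from the P libraries, while Cplx1/Cplx2 in MCAO lies between 0.345 and 1.05 as a ratio, above 0.269 to 0.311 in sham LN.

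The Sv2b to Sv2a ratio was 0.864 to 0.980 in MCAO, 0.604 to 0.876 in sham LN, 0.122 to 0.250 in pontine infarction and 0.180 to 0.201 in sham PN. The Unc13c to Unc13a ratio was 0.0514 to 0.120, 0.0616 to 0.135, 0.457 to 0.647 and 0.529 to 0.748 in the same 4 groups. Both ratios kept L and P libraries apart after stroke as in the shams. The Cplx1 to Cplx2 ratio was 1.05, 0.345 and 0.605 in MCAO, against 0.311, 0.269 and 0.300 in sham LN, so all 3 MCAO libraries were above the sham LN range. In pontine infarction it was 1.29, 1.25 and 0.836, against 1.37, 1.10 and 1.29 in sham PN, and the highest MCAO library lay within the pontine infarction range. The Sv2c to Sv2a ratio was 0.0471 to 0.123 in MCAO, 0.0419 to 0.105 in sham LN, 0.0452 to 0.0739 in pontine infarction and 0.0444 to 0.0664 in sham PN. The Rab3b to Rab3a ratio was 0.0515 to 0.0742, 0.0662 to 0.0825, 0.0527 to 0.0897 and 0.0477 to 0.0584 in these groups, and Rab3c to Rab3a 0.0291 to 0.0311, 0.0188 to 0.0294, 0.0193 to 0.0527 and 0.0355 to 0.0491. Of these last 3 ratios, Sv2c to Sv2a overlapped between each stroke and its own shams, as did both Rab3 ratios.

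After MCAO few release genes passed the test. By edgeR's quasi-likelihood test 2 of the 37 were lower, 0 were higher and 35 did not pass, whereas 18.6% of all tested genes passed, 12.5% higher and 6.07% lower, so the share of lower release genes was near that of all genes. The 2 were the calcium sensor Doc2b and the active zone gene Rims2, at 0.452 and 0.636 times their sham LN levels, and Rims2 lost its call in 5 of the 6 fits that left out a library. The log2 change was below 0 for 32 of the 37, with a median of -0.39, while the median of all tested genes was -0.00 and 50.2% of them were below 0. MCAO and sham LN libraries did not overlap for 10 of the 37 genes, all lower in MCAO, against 18.7% of all genes lower and 20.4% higher. At an unadjusted p under 0.05 there were 10 of the 37, against 35.6% of all tested genes. The sham LN libraries in this comparison are the ones set against sham PN above. In such bulk samples, fewer neurons and less RNA per neuron cannot be told apart.

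**Figure D3:**
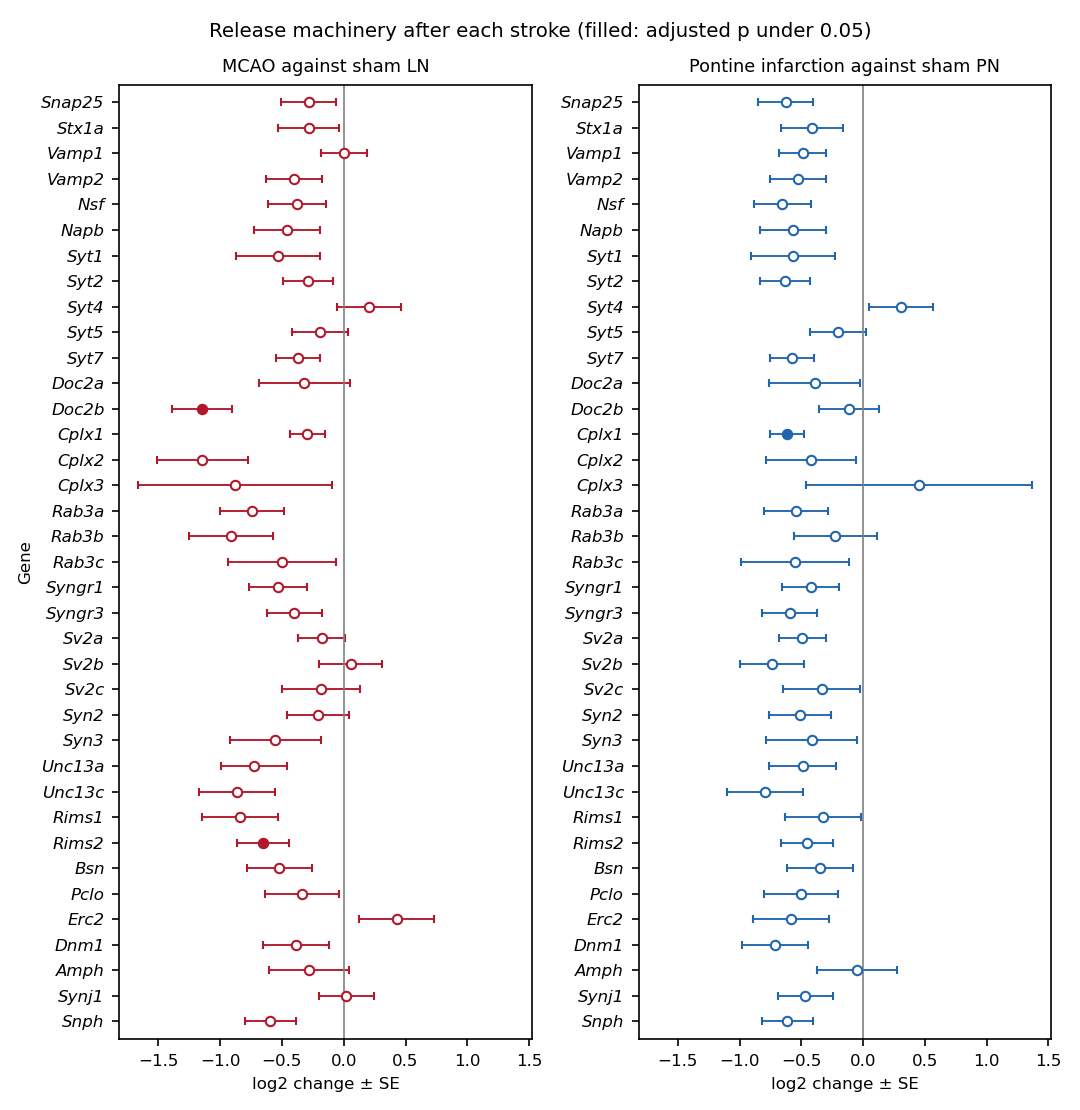
The plot gives the log2 change with its standard error for the 37 tested genes, MCAO over sham LN on the left and pontine infarction over sham PN on the right, filled where the adjusted p was under 0.05. Doc2b (-1.15) and Rims2 (-0.65) are filled for MCAO and Cplx1 (-0.61) for pontine infarction, and most open points lie left of 0.

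Doc2b encodes a soluble high-affinity calcium sensor linked to spontaneous and asynchronous release. It had 29.6 and 43.8 CPM in MCAO replicates 1 and 2 and 24.2 CPM in the unnumbered MCAO library, against 85.3, 50.1 and 80.3 CPM in sham LN. The log2 change was -1.15 ± 0.24 (SE, edgeR adjusted p = 0.0103), and the groups were apart, with MCAO replicate 2 closest to sham LN replicate 2. Leaving out sham LN replicate 1 gave -1.01 and an adjusted p of 0.0507, and leaving out any other library kept the call. Its relative Doc2a had 17.5, 46.3 and 31.8 CPM in MCAO, against 24.4, 56.1 and 38.9 CPM in sham LN, which overlapped (-0.32 ± 0.37, edgeR adjusted p = 0.561). Rims2 had 33.3, 56.5 and 44.2 CPM in MCAO, against 68.9, 72.2 and 69.5 CPM in sham LN (-0.65 ± 0.21, edgeR adjusted p = 0.0485). All MCAO libraries were below the narrow sham LN range. The Rims2 call was lost in each fit that left out a library other than MCAO replicate 2, with adjusted p of 0.0976 to 0.127. The Doc2b and Rims2 calls were also lost under neuron-marker scaling, with the compared libraries alone and with the replicate number as a block.

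Complexin 2 lay at the threshold. Cplx2 had 525, 1959.8 and 1059.8 CPM in MCAO, against 2617, 2859 and 2358 CPM in sham LN, which gave -1.14 ± 0.37 on the log2 scale (edgeR adjusted p = 0.0501). It passed in the fits with DESeq2 size factors, neuron-marker scaling, no filter, the 1 CPM filter, DESeq2 and limma voom, with adjusted p of 0.00941 to 0.0494. It did not pass with upper quartile factors (0.0523), with the compared libraries alone (0.133) or with the replicate number as a block. Nor did it pass when any library other than MCAO replicate 2 was left out (0.0723 to 0.153), and without that replicate the adjusted p was 0.00124. Cplx1 had 551, 677 and 641 CPM in MCAO, against 813, 769.8 and 708 CPM in sham LN (-0.29 ± 0.14, edgeR adjusted p = 0.153). Both complexins had groups that did not overlap. Cplx3 had 6.21, 26.5 and 11.2 CPM in MCAO, against 21.4, 39.8 and 19.6 CPM in sham LN, where replicate 2 of MCAO lay within the sham range.

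None of the SNARE genes passed after MCAO. Snap25 had 901, 1234 and 1259 CPM in MCAO, against 1293, 1547 and 1291 CPM in sham LN (log2 change -0.28 ± 0.22, edgeR adjusted p = 0.384). Stx1a had 182, 323 and 291 CPM in MCAO, against 285, 415 and 269 CPM in sham LN (-0.28 ± 0.25, edgeR adjusted p = 0.434). Vamp2 had 522, 1143 and 762 CPM in MCAO, against 1031, 1169 and 1005 CPM in sham LN (-0.40 ± 0.23, edgeR adjusted p = 0.225). For all 3, MCAO replicate 1 was the lowest library, and only Snap25 had groups apart. Vamp1 had 279, 295 and 404 CPM in MCAO, against 386, 339 and 252 CPM in sham LN, with a log2 change of 0.00 ± 0.19. Nsf and Napb had log2 changes of -0.38 and -0.46.

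Among the synaptotagmins, Syt1 had 544, 1245 and 893 CPM in MCAO, against 1029, 1609.6 and 1234 CPM in sham LN (log2 change -0.53 ± 0.34, edgeR adjusted p = 0.284). Syt2 had 54.9, 64.5 and 76.7 CPM in MCAO, against 106, 76.2 and 57.0 CPM in sham LN, and both genes had overlapping groups. Syt4, a synaptotagmin of dense-core vesicles, had a log2 change of 0.20, Syt5 of -0.19 and Syt7 of -0.37. None of these passed.

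The Rab3 GTPases and priming factors gave 5 further genes with an adjusted p between 0.05 and 0.1, besides Cplx2 and Snph. Rab3a had 243, 589 and 386 CPM in MCAO, against 677, 747 and 611 CPM in sham LN (log2 change -0.74 ± 0.26, edgeR adjusted p = 0.0666). Rab3b had 12.5, 43.6 and 25.2 CPM in MCAO, against 53.2, 49.4 and 50.4 CPM in sham LN (-0.91 ± 0.34, edgeR adjusted p = 0.0802). Both had groups apart, with MCAO replicate 2 close to the shams. Unc13a had 102, 244 and 219 CPM in MCAO, against 276, 382 and 274 CPM in sham LN (-0.72 ± 0.27, edgeR adjusted p = 0.0797). Unc13c had 12.2, 25.7 and 11.2 CPM in MCAO, against 29.0, 23.5 and 36.9 CPM in sham LN (-0.86 ± 0.31, edgeR adjusted p = 0.07). Rims1 had 107, 301 and 264 CPM in MCAO, against 331, 521 and 349.7 CPM in sham LN (-0.84 ± 0.31, edgeR adjusted p = 0.0764). Unc13a and Rims1 had groups apart, and Unc13c overlapped through MCAO replicate 2. Snph had 257, 426 and 350.3 CPM in MCAO, against 535, 549.7 and 476 CPM in sham LN (-0.60 ± 0.21, edgeR adjusted p = 0.0647). Rab3c, with 7.02, 18.3 and 11.5 CPM in MCAO against 12.7, 21.3 and 18.0 CPM in sham LN, did not pass.

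Erc2, Synj1, Sv2b, Syt4 and Vamp1 were the 5 genes with a log2 change above 0 after MCAO, from 0.00 to 0.43. Erc2 had 51.5, 60.2 and 83.1 CPM in MCAO, against 40.02, 53.8 and 51.0 CPM in sham LN (0.43 ± 0.30, edgeR adjusted p = 0.332), and was the highest. Sv2b had 364, 584 and 456 CPM in MCAO, against 332, 596 and 421 CPM in sham LN. Sv2a had 408, 596 and 528 CPM in MCAO, against 549, 681 and 504 CPM in sham LN, and Sv2c had 50.3, 28.1 and 38.1 CPM, against 51.1, 28.5 and 52.7 CPM. The SV2 groups overlapped in each case. The other vesicle, synapsin, scaffold and endocytosis genes had log2 changes from -0.55 (Syn3) to -0.21 (Syn2).

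The 3 MCAO libraries differed among themselves in these genes, and so did the sham LN libraries. In sham LN replicate 2, 5 of 37 release genes were below the sham LN mean, against 28 and 28 in replicates 1 and 3. Of its 6 excitatory neuron markers 0 were below that mean, with a median of 0.63. Of its 11 telencephalon markers 5 were below, such as Drd1, with 121 CPM against 256 and 257 CPM in replicates 1 and 3. Whether the tissue taken differed between the sham LN libraries was not tested. Relative to the sham LN mean, MCAO replicates 1 and 2 had medians of -0.96 and -0.06 over the release genes, and the unnumbered MCAO library had -0.28. The 15 other neuron markers had medians of -0.91, -0.03 and -0.33 in these 3 libraries, and 14 of the 15 had a log2 change below 0, with 0 lower and 1 higher by the test. Excitatory neuron markers (-1.56, 0.22 and -0.17), telencephalon markers (-1.59, -0.13 and -0.71) and astrocyte markers (-1.20, -0.36 and -0.80) had the same order of libraries as the release genes, with 5 of 9 astrocyte markers lower and 1 higher by the test. The 7 inhibitory neuron markers did not, with -0.01, -0.25 and 0.28, a list median of 0.04 and 1 called in each direction. The 8 tested oligodendrocyte markers had medians of -0.68, -1.14 and -0.94, and 9 macrophage and neutrophil markers had 6.62, 3.28 and 5.22. The summed macrophage and neutrophil level was 274 to 2740 CPM in MCAO and 41.5 to 48.7 CPM in sham LN, and was lowest in MCAO replicate 2. Without MCAO replicate 2 the count of lower release genes was 16 of 37, and without any other library it was 0 or 1. The share of all tested genes called in these fits is not given here, so these counts cannot be read as particular to the release genes. Without the choroid plexus library, MCAO replicate 1, only Doc2b was lower. With libraries scaled to equal neuron marker levels, the release genes had a median log2 change of -0.14, against 0.30 for all tested genes, and 1 gene, Cplx2, was lower. Such scaling does not separate fewer neurons from less RNA per neuron, and the part of cell make-up in these values was not tested.

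**Figure D4:**
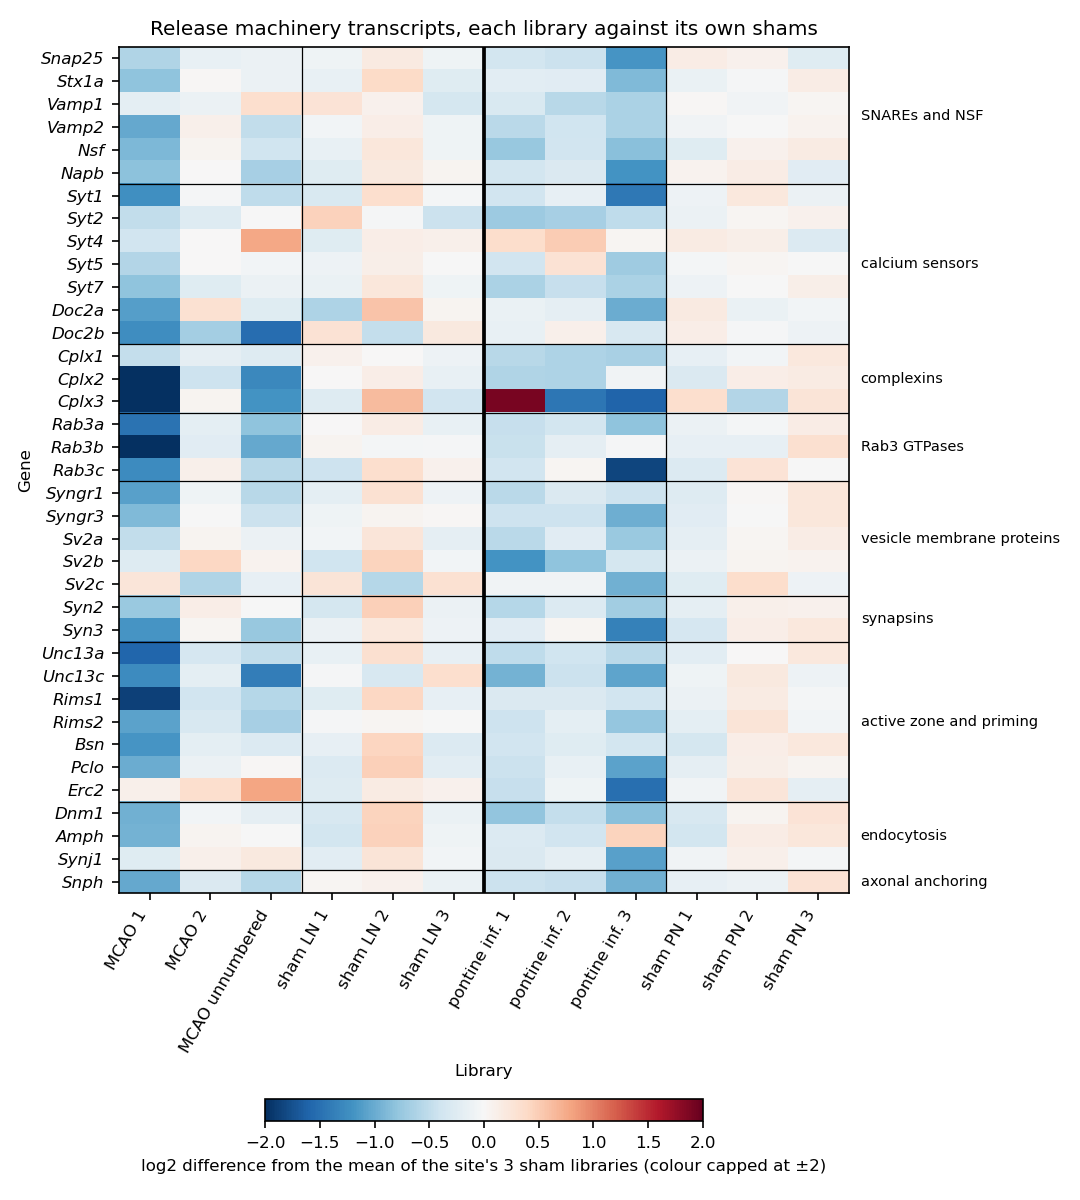
Colours give each library's log2 difference from the mean of its own 3 sham libraries for the 37 tested genes, grouped by role, with L libraries left of the thick line and P libraries right of it. In MCAO replicate 1, 35 of 37 genes are below 0 and Cplx2 is lowest at -2.31, whereas in MCAO replicate 2 it is 21 of 37.

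After pontine infarction, 1 release gene fell, complexin 1, to 0.653 times its level in sham PN. By edgeR's quasi-likelihood test 1 of the 37 genes was lower, 0 were higher and 36 did not pass, against 4.08% of all tested genes passing, 3.21% higher and 0.87% lower. The log2 change was below 0 for 35 of the 37, with a median of -0.49, against a median of -0.08 for all tested genes, of which 58% were below 0. Pontine infarction and sham PN libraries did not overlap for 23 of the 37, all lower in pontine infarction, against 18.7% of all genes lower and 13.3% higher. At an unadjusted p under 0.05 there were 13 of the 37, against 21.6% of all tested genes.

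Cplx1 had 721, 688 and 672 CPM in pontine infarction, against 945, 1014 and 1227 CPM in sham PN (log2 change -0.61 ± 0.14, SE, edgeR adjusted p = 0.034). All pontine infarction libraries were below the sham PN range. The call was lost without each of the 6 libraries in turn, with log2 changes of -0.70 to -0.50 and adjusted p of 0.0575 to 0.152. Cplx2 had 559, 551 and 804 CPM in pontine infarction, against 692, 924 and 950.5 CPM in sham PN, and overlapped (-0.42 ± 0.36, edgeR adjusted p = 0.528). Cplx3 had 3.30, 0.257 and 0.224 CPM, against 1.07, 0.529 and 1.01 CPM.

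The 6 SNARE and disassembly genes did not overlap between pontine infarction and sham PN, and none passed. Snap25 had 828, 789.6 and 469 CPM in pontine infarction, against 1181, 1139 and 904 CPM in sham PN (log2 change -0.63 ± 0.22, edgeR adjusted p = 0.133). Stx1a had 32.7, 32.5 and 20.5 CPM in pontine infarction, against 34.9, 37.3 and 42.3 CPM in sham PN (-0.42 ± 0.25, edgeR adjusted p = 0.359), a direction that turned to 0.03 under neuron-marker scaling. Vamp2 had 523, 576 and 491 CPM in pontine infarction, against 727, 759 and 805 CPM in sham PN (-0.53 ± 0.23, edgeR adjusted p = 0.205). Replicate 3 of pontine infarction was the lowest library for these 3 genes. Vamp1 had 1043, 879 and 827 CPM in pontine infarction, against 1314, 1221 and 1326 CPM in sham PN (-0.49 ± 0.19, edgeR adjusted p = 0.162). Nsf and Napb had log2 changes of -0.65 and -0.57.

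Among the calcium sensors, Syt1 had 379, 439 and 182 CPM in pontine infarction, against 459, 571 and 453 CPM in sham PN (log2 change -0.57 ± 0.34, edgeR adjusted p = 0.358). Syt2 had 175, 181 and 202 CPM in pontine infarction, against 266, 295 and 305 CPM in sham PN (-0.63 ± 0.20, edgeR adjusted p = 0.102). Both had groups apart, and replicate 3, the lowest for Syt1, was the highest for Syt2. Syt7 had 192, 217 and 192 CPM in pontine infarction, against 277, 297 and 323 CPM in sham PN (-0.58 ± 0.18), and was the 1 release gene with an edgeR adjusted p between 0.05 and 0.1, at 0.0912. Doc2b had 43.1, 51.0 and 38.3 CPM in pontine infarction, against 52.4, 46.7 and 44.3 CPM in sham PN, and overlapped (-0.12 ± 0.24, edgeR adjusted p = 0.813). Syt4 and Cplx3 were the 2 genes above 0, with log2 changes of 0.30 and 0.45. The Cplx3 value rested on replicate 1: without it the log2 change was -1.82, and limma voom gave -0.72.

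Of the vesicle membrane genes, Sv2a had 609, 757 and 532 CPM in pontine infarction, against 777, 908 and 983 CPM in sham PN (log2 change -0.49 ± 0.19, edgeR adjusted p = 0.164). Sv2b had 74.1, 97.2 and 133 CPM in pontine infarction, against 156, 175 and 177 CPM in sham PN (-0.74 ± 0.26, edgeR adjusted p = 0.127). Both were below the sham PN range in every pontine infarction library, while Sv2c overlapped with 45.0, 44.7 and 24.0 CPM against 39.6, 60.2 and 43.6 CPM. Rab3a had 462, 493 and 364 CPM in pontine infarction, against 588, 624 and 707 CPM in sham PN, and was likewise below the sham PN range. Rab3b had 24.3, 29.1 and 32.7 CPM, against 29.7, 29.7 and 41.3 CPM, and Rab3c had 19.3, 26.0 and 7.03 CPM, against 21.0, 30.6 and 25.1 CPM. These 2 minor Rab3 forms overlapped with sham PN.

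The active zone genes had log2 changes between -0.79 and -0.32 after pontine infarction and 0 of 7 passed. Unc13a had 60.8, 65.0 and 59.4 CPM in pontine infarction, against 74.2, 86.5 and 99.5 CPM in sham PN, and Unc13c had 29.3, 42.0 and 27.1 CPM, against 53.4, 64.7 and 52.6 CPM. Both were apart from the shams. Rims2 had 19.8, 23.0 and 15.4 CPM in pontine infarction, against 22.9, 31.5 and 25.3 CPM in sham PN, and pontine infarction replicate 2 just reached the sham range (-0.45 ± 0.21, edgeR adjusted p = 0.236). Dnm1 had a log2 change of -0.71 ± 0.27 and Snph of -0.61 ± 0.21, with edgeR adjusted p of 0.152 and 0.118.

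Relative to the sham PN mean, the release genes had medians of -0.42, -0.29 and -0.77 in pontine infarction replicates 1 to 3, and the 15 other neuron markers had -0.39, -0.37 and -0.93. Inhibitory neuron markers had -0.36, -0.39 and -0.98, excitatory neuron markers -1.04, -0.30 and -0.79, and astrocyte markers -0.21, -0.14 and -0.31. The 8 oligodendrocyte markers had -0.65, -0.67 and -0.63. Of 9 macrophage and neutrophil markers 7 were higher, with a median log2 change of 5.31 and a summed level of 308 to 1420 CPM in pontine infarction and 53.4 to 56.4 CPM in sham PN. With libraries scaled to equal neuron marker levels the release genes had a median log2 change of -0.04, with 23 of 37 below 0 and 0 called, against a median of 0.40 for all tested genes. Replicate 3, the library with cerebellum markers, had the lowest medians of both neuronal lists, and without it the median of the release genes over the group was -0.36. The summed level of the hindbrain Hox genes was 2.51, 6.22 and 16 CPM in pontine infarction replicates 1 to 3, all below the 23.7 to 39.6 CPM in sham PN, and was highest in replicate 3, the library with the lowest release gene median. The part of these lists in the result was not tested.

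**Figure D5:**
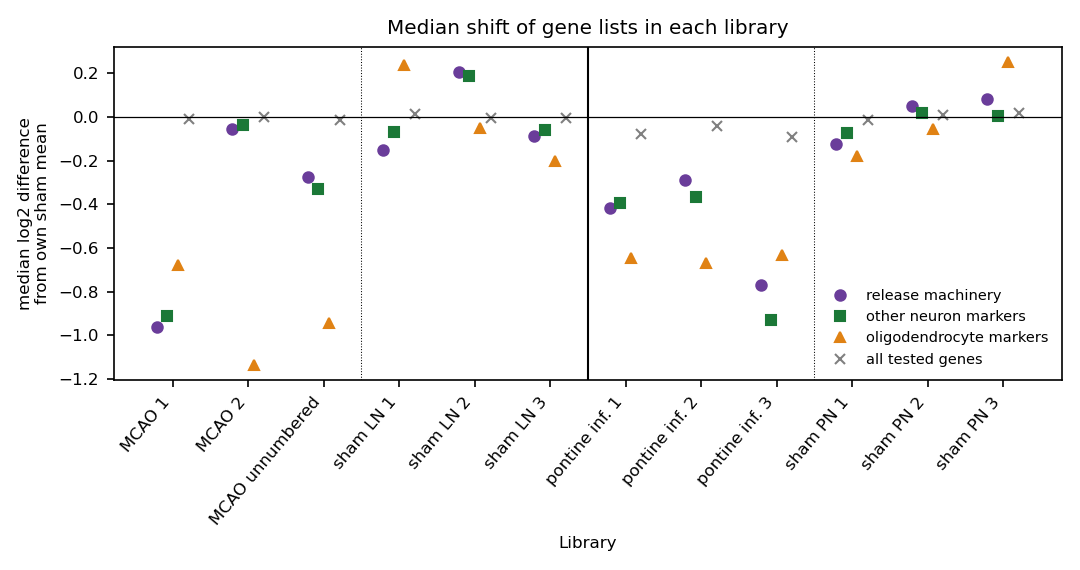
Points give, for each library, the median log2 difference from the mean of its own 3 sham libraries for the release genes, 15 other neuron markers, 8 oligodendrocyte markers and all tested genes. The release genes and the other neuron markers lie close together in each library, at -0.96 and -0.91 in MCAO replicate 1 and at -0.77 and -0.93 in pontine infarction replicate 3.

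The change after MCAO and the change after pontine infarction could be told apart for 0 of the 37 genes, tested as an interaction in the same model. Of all 17008 genes 0 passed (0%) with edgeR, 238 with DESeq2 and 0 with limma voom, and 10.7% had an unadjusted p under 0.05. Doc2b, Sv2b and Erc2 had an unadjusted p under 0.05 among the release genes, and none passed with DESeq2 or limma voom either. Doc2b differed by -1.03 ± 0.34 (edgeR adjusted p = 0.346), with log2 changes of -1.15 after MCAO and -0.12 after pontine infarction. Sv2b differed by 0.80 ± 0.36 (edgeR adjusted p = 0.462), with 0.06 and -0.74. Erc2 differed by 1.01 ± 0.43 (edgeR adjusted p = 0.44), with 0.43 and -0.58. None of these differences passed adjustment over all genes, and 3 of 37 at an unadjusted p under 0.05 is no more than the share of all genes. Without MCAO replicate 2, Doc2b and Rab3b passed in edgeR, both lower after MCAO, with adjusted p of 0.0191 and 0.0477. The share of all genes that passed in that fit is not given here, so these calls cannot be read as particular to the release genes.

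A wider list of 48 release and vesicle cycle genes, of which 47 were tested, gave 2 higher, 5 lower and 40 without a call after MCAO, with a median log2 change of -0.27. Of all tested genes 12.5% were higher and 6.07% lower. Of the lower ones, Rph3a, for the Rab3 effector rabphilin, had 274.6 ± 136 CPM in MCAO, against 583 ± 124 CPM in sham LN (SD, n = 3 each; -1.09 ± 0.33, edgeR adjusted p = 0.0398). Syt9, a fast calcium sensor, had 3.00 ± 1.98 CPM in MCAO, against 8.79 ± 2.01 CPM in sham LN (-1.55 ± 0.37, edgeR adjusted p = 0.0169). The other lower genes were Prrt2 (-0.89), Syt3 (-0.77) and Svop (-0.58), for a SNARE-binding protein mutated in human paroxysmal dyskinesia, a synaptotagmin and an SV2-related transporter. The 2 higher genes belong to clathrin-mediated endocytosis, which all cells use. Picalm, a clathrin assembly protein, had 299 ± 92.5 CPM in MCAO, against 147 ± 8.13 CPM in sham LN (1.02 ± 0.25, edgeR adjusted p = 0.0193), and Cltb, the clathrin light chain B, had a log2 change of 0.40. After pontine infarction 0 of the 47 passed, with a median of -0.39, and 0 passed for the difference between the strokes.

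Between the shams, 13 of these 47 genes were higher in sham LN, 4 lower and 30 without a call, with a median log2 difference of 0.23. Of all tested genes 10% were higher and 11.3% lower. Synpr, for the vesicle protein synaptoporin, had 217 ± 43.3 CPM in sham LN, against 34.5 ± 8.83 CPM in sham PN (SD, n = 3 each; 2.65 ± 0.43, edgeR adjusted p = 0.0012). Syt10, Rab3d and Syt12 were also among the higher ones, with log2 differences of 2.58, 1.60 and 1.15. The 4 lower genes were Syt3 (-0.74), Dnm3 (-0.73), Bin1 (-0.66) and Cltb (-0.47). Bin1 and Dnm3, an amphiphysin and a dynamin, thus ran opposite to Synpr, while their relatives Amph and Dnm1 differed by 0.07 and -0.04.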

How the data were processed

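The authors deposited a table of unscaled gene counts, 37209 symbols by 12 libraries. Per the submitters' processing notes, reads were aligned with HISAT2 to Rnor_6.0. The aligner's version is not given in the sources used here, and neither are counter, annotation and strand setting. Where genes overlap, their counts are therefore uncertain: on GRCr8, 7 of the 39 genes overlap a protein-coding gene (Syt1, Doc2a, Rab3a, Syn1, Syn2, Syn3 and Snph). Per the labels, total RNA had an RNA integrity number above 8.

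In R 4.3.3, filterByExpr (minimum count 10, minimum total 15) kept 17008 genes (45.7%). They were fitted in edgeR 4.0.16 by a quasi-likelihood model of 4 group means with TMM scaling. Tests were two-sided and adjusted by Benjamini-Hochberg over all 17008 genes, with a threshold of 0.05. Standard errors (SE) were taken as |log2 change| divided by √F. Log2 values per library used a prior count of 2, and ratios 0.5 added to each count. The fit was also run on simulated data with planted changes. These were larger than most changes of the release genes after stroke, so they do not show how often changes of that size are missed. DESeq2 1.42.0, limma 3.58.1 (voom), other scalings and filters, the compared libraries alone, a replicate block and leaving out libraries were alternatives.

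The genes, lists and tests were chosen with earlier results of these data known. All 39 genes are named. Full statistics go to genes past the threshold and to Snap25, Syt1, Vamp2 and Stx1a, and values per library also to 8 paralog pairs. Values of other genes, such as those near the threshold, were added after they were seen. Of the wider list, at most the 5 largest called changes in each direction are named, and 1 that this picks is not reported here.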

Additional observations from a re-analysis of the deposited data

How the results depend on the processing

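Direction was compared for the genes called in a comparison and, after each stroke, for Snap25, Syt1, Vamp2 and Stx1a. It was kept under the alternatives run, except that Stx1a after pontine infarction was 0.0254 under neuron-marker scaling. Against 2 release genes called for MCAO, neuron-marker scaling gave 1, no filter 8, DESeq2 9, limma voom 5 and the compared libraries alone 0, and leaving out libraries gave 0 to 16. Against 1 for pontine infarction, upper quartile factors, neuron-marker scaling, no filter and the compared libraries alone gave 0, and leaving out libraries gave 0 to 0. For the difference between the strokes, leaving out libraries gave 0 to 2 against 0. For the shams, the alternatives gave 16 to 24 calls against 19, and leaving out libraries 14 to 15. The share of all tested genes called under each alternative is not set beside these counts. A higher or lower count therefore cannot be read as particular to the release genes. DESeq2 size factors, neuron-marker scaling and no filter each ended the Cplx1, Sv2a and Unc13c calls between the shams. Neuron-marker scaling shifted the median of all genes to 0.30 for MCAO, 0.40 for pontine infarction and 0.14 for the shams. The cause of these shifts in the counts was not tested. Libraries with the same number deviated together with correlations of 0.0426 and 0.104 for MCAO with sham LN. The correlations were 0.0483 to 0.154 for pontine infarction with sham PN and 0.0435 to 0.153 for the shams. For these last 2 pairs of groups, all 6 libraries correlated best with their own number. What a shared number stands for was not tested, and the main fit has no term for it. With the number as a replicate block, without the unnumbered MCAO library, 0 genes were called for MCAO, 0 for pontine infarction, 0 for the difference and 17 for the shams, where Cplx1, Sv2a and Unc13c lost their calls and Syt4 gained one. A pseudocount of 5 left every paralog ratio within the spread of its group. Depth limits Cplx3 most, with 0.224 to 3.30 CPM in pontine infarction and 0.529 to 1.07 CPM in sham PN.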
